A study of Mus musculus with 6 samples.

Results

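The genes described here move cholesterol through and out of macrophages. They were chosen by name as Nr1h3, Abca1, Abcg1, Mylip, Apoe, Soat1, Nceh1, Lipa, Npc1 and Npc2, and a row of the array table was used where its platform annotation names that gene alone. Of these 10 genes, 9 had at least 1 such row and together had 11 of the 41345 rows, since Nceh1 and Npc1 have 2 rows each. Soat1, the gene of the enzyme that esterifies cholesterol in macrophages, was named by no row of the annotation and was not analysed here.

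The arrays came from epididymal white adipose tissue (eWAT), a visceral fat depot of the mouse. Wild-type mice (WT, 3 arrays) were compared with transgenic mice that carry Blnc1, a long noncoding RNA, specifically in adipose tissue (Tg, 3 arrays). All were C57BL/6 males aged 8 months, and all, controls included, had been fed a high-fat diet (HFD) for 21 weeks. The labels call the transgene adipose specific and name neither its promoter nor the founder line, and they number the 3 biological replicates of each genotype without saying that a number pairs mice.

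Macrophages that clear dead, lipid-filled adipocytes take in their cholesterol. In the lysosome, acid lipase (Lipa) frees sterol that arrives as ester, NPC2 carries it to NPC1 in the membrane, and NPC1 exports it. Sterol that is not needed is stored again as ester in the cytosol, from which neutral hydrolases such as NCEH1 release it, or leaves the cell through the transporters ABCA1 and ABCG1 to lipid-poor apolipoproteins, APOE among them, and to high-density lipoprotein. LXRα, the product of Nr1h3, senses oxidised sterols, and Abca1, Abcg1, Apoe and Mylip are among its known targets in macrophages. Several of these genes are also expressed in adipocytes, and in bulk tissue fewer cells of a type and less RNA per cell cannot be told apart.

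Values are log2 signals, so a difference of 1 is a doubling, and a level of 1 row is not set against that of another. Over all rows the median signal of an array was between 2.64 and 2.75. The adipocyte gene Adipoq, chosen after its values were seen, read 9.21 to 10.40 and the macrophage gene Adgre1 9.59 to 10.19, so both cell types were represented on every array. Array Tg 2 stood apart by transcripts of the male tract, which lies against this fat pad, and WT 2 and WT 3 by the transcript Spink8. The epididymis list, 11 genes measured, averaged 5.90 in Tg 2 and 1.31 to 1.59 elsewhere, with Lcn9 at 9.87 and Spag11a at 3.69 in Tg 2. Spink8, another gene of the epididymis, chosen after its values were seen, read 6.55 and 8.09 in WT 2 and WT 3, and 1.16 to 2.53 on the other 4 arrays. Results are therefore also given for WT 1, Tg 1 and Tg 3, a comparison that has 1 WT array. These are called the arrays without tract transcripts below, although leaving out WT 2 and WT 3 rests here on Spink8 and not on the epididymis list.

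The cholesterol genes differed little between the genotypes. Abcg1, Apoe and the bright row of Nceh1 lay lower on all 3 Tg arrays than on any WT array, by 0.42, 0.19 and 0.31 on the log2 scale. In the other 8 rows the groups overlapped. None of the 11 rows passed an adjusted p of 0.05 in limma (Benjamini-Hochberg over all rows). Their adjusted p lay between 0.42 and 0.86, and 0% of all rows passed. Groups that did not overlap with Tg lower were found in 3 of 11 member rows, against 9.35% of all rows and 13.0% of the rows brighter than the median. Groups apart with Tg higher were found in 0 of 11, against 7.36%. At an unadjusted p under 0.05, 1 member row was lower, against 5.88% of all rows, and 0 were higher, against 4.43%. The 11 rows had a median difference of -0.09, where all rows had -0.01, and 7 of the 11 were lower in Tg. Centring each array on its macrophage markers moves every row up by 0.22. The members' median was then 0.13, where that of all rows was 0.21.

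**Figure D1:**
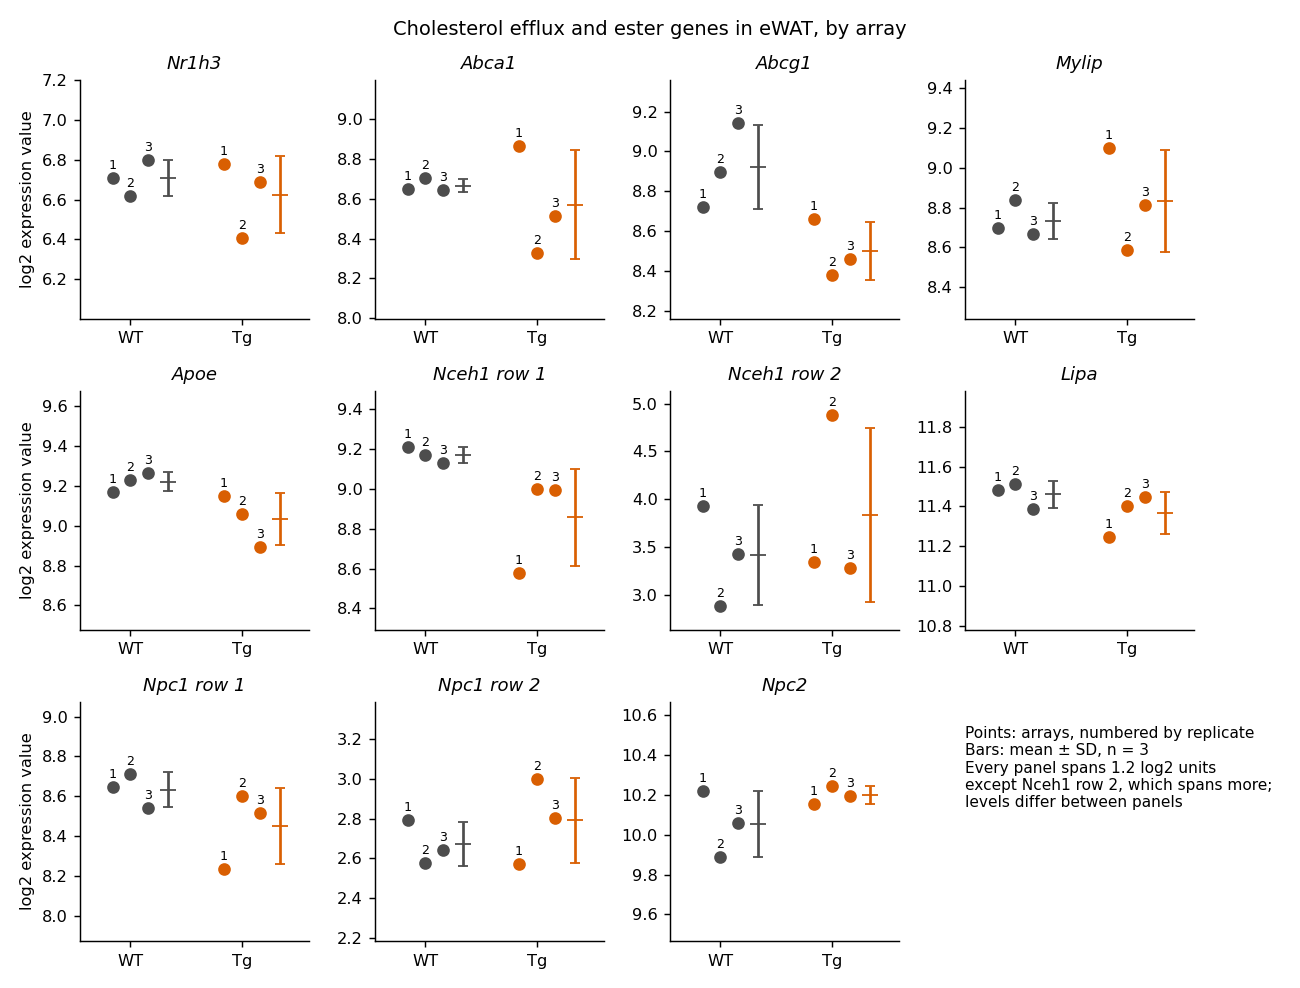
Log2 expression value (vertical axis) of each member row in the 3 WT arrays (grey) and the 3 Tg arrays (orange), numbered by replicate, with the mean and SD of each group (n = 3). Abcg1, Apoe and Nceh1 row 1 have no overlap between the groups; in Nceh1 row 1 the array Tg 1 lies at 8.58, below Tg 2 at 9.0003 and Tg 3 at 8.997.

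Nr1h3, which encodes the sterol sensor LXRα, read 6.71, 6.62 and 6.80 in WT and 6.78, 6.41 and 6.69 in Tg. The groups overlapped, and Tg 2 was the lowest array. The difference was -0.08 ± 0.13 (SE), with a 95% confidence interval from -0.39 to 0.23 and an adjusted p of 0.86 in limma. It turned to 0.026 without Tg 2 and to 0.024 in WT 1, Tg 1 and Tg 3. Its partners are the retinoid X receptors, and none of the 3 differed beyond its error. Rxra, the main partner in many tissues, differed by 0.08 ± 0.11 and Rxrg by 0.26 ± 0.27. With all 6 arrays used, all 3 had a higher mean in Tg, with the groups overlapping. In the arrays without tract transcripts only 1 of 3 was higher. The second LXR gene, Nr1h2, was not analysed here, since no row names it alone.

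Abca1 encodes the transporter that loads cholesterol and phospholipid onto lipid-poor apolipoproteins. It read 8.65, 8.70 and 8.65 in WT and 8.87, 8.33 and 8.51 in Tg. The Tg arrays lay on both sides of WT, with Tg 1 the highest and Tg 2 the lowest of all 6. The difference was -0.10 ± 0.15 (95% confidence interval -0.46 to 0.27; limma adjusted p = 0.86), and it was 0.023 without Tg 2. Thus the mean difference is small, while the SD of Tg was 0.27 and that of WT 0.03; the spread itself was not tested.

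The start of Abca1 is shown because LXR with RXR is known to act there, through 2 half-sites in the same orientation spaced by 4 bases. RefSeq promoter windows (assembly GRCm38.p6, 250 bases before to 50 after a gene's start) were available for 8 of the 10 genes. Abcg1 and Npc1 had none and were not searched. In the available windows both strands were searched for 3 motifs. The paired half-site GGTNA, 5 free bases and GGTNA was in the Abca1 window from base -67 to -53 on the opposite strand and in 0.718% of all 32851 windows. CACGTG, the core of the element through which TFEB is known to act on lysosomal genes, was in 7.15% of windows and, among the members, in those of Abca1 (-147 to -142) and Nceh1 (-26 to -21). The sterol regulatory element TCACNCCAC was in 1.24% of windows and in no member window searched. The windows lie at chr4:53159846-53160145 (minus strand) for Abca1 and chr3:27182754-27183053 (plus strand) for Nceh1. Both are written 5′ to 3′ along the gene, and capitals mark the motif matches, which are matches of letters and not measured binding.
Abca1: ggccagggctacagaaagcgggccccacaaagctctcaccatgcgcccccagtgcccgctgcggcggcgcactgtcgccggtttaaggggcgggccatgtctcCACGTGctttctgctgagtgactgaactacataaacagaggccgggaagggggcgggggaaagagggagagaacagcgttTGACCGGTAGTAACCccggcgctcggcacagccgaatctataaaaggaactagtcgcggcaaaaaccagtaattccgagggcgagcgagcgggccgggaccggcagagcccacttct
Nceh1: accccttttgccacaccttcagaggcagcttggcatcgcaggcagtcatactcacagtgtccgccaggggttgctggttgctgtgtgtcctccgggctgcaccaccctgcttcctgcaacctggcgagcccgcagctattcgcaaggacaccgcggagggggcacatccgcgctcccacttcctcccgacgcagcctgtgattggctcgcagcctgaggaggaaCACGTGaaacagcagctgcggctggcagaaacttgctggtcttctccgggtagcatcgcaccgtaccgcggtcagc

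Abca1 is also known as a target of miR-33, which lies in an intron of Srebf2 and is shown for its seed (bases 2 to 8, in capitals), the part that pairs with targets. The mature form from RefSeq (GRCm38.p6, chr15:82198127-82198147, plus strand) is the following.
mmu-miR-33-5p: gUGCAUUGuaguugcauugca
The row named Mir33, chosen after its values were seen, read between 0.66 and 0.94 on all 6 arrays, in the lowest 8.96% of row means, so it gives no usable level of the short RNA. Srebf2, the host gene, also chosen after its values were seen, read 7.31, 7.08 and 7.28 in WT and 6.90, 7.25 and 7.11 in Tg, a difference of -0.14 ± 0.13 with overlapping groups.

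Abcg1, whose product moves sterol to high-density lipoprotein, had the smallest p of the members. It read 8.72, 8.90 and 9.14 in WT and 8.66, 8.38 and 8.46 in Tg. Every Tg array lay below every WT array, although Tg 1 and WT 1 were only 0.06 apart in signal. The difference was -0.42 ± 0.14 (1.34-fold lower in Tg; 95% confidence interval -0.77 to -0.08; unadjusted p = 0.024, limma adjusted p = 0.42). It was -0.31 without WT 3, the highest array, and -0.52 without WT 1, and -0.16 in the 3 arrays without tract transcripts. Centred on the macrophage markers of each array it was -0.20 ± 0.12, with the groups overlapping. Relative to the adipocyte markers of each array it was -0.87, with the groups apart. By construction the first scaling raises every row's difference by 0.22, and the second lowers it by 0.45.

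Mylip encodes IDOL, a ubiquitin ligase that sends lipoprotein receptors to the lysosome. It read 8.69, 8.84 and 8.67 in WT and 9.10, 8.59 and 8.81 in Tg. Tg 1 was the highest and Tg 2 the lowest array, as for Abca1. The difference was 0.10 ± 0.15 (95% confidence interval -0.26 to 0.46; limma adjusted p = 0.85) and was -0.034 without Tg 1 and 0.26 in the arrays without tract transcripts.

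VLDLR and LRP8 are among the receptors that IDOL is known to degrade. Vldlr, the receptor of triglyceride-rich lipoproteins, read 7.44, 7.45 and 7.10 in WT and 8.01, 7.69 and 7.92 in Tg, higher by 0.54 ± 0.15 with the groups apart (limma adjusted p = 0.35). Lrp8, an APOE receptor, read 4.59, 5.43 and 4.71 in WT and 3.99, 3.77 and 3.56 in Tg, lower by -1.13 ± 0.24 with the groups apart (limma adjusted p = 0.33). These 2 receptor transcripts thus lay in opposite directions, and neither passed the threshold.

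Apoe encodes the apolipoprotein that macrophages secrete as an acceptor of sterol. It read 9.17, 9.23 and 9.26 in WT and 9.15, 9.06 and 8.89 in Tg. The groups did not overlap, but Tg 1 lay only 0.02 below WT 1. The difference was -0.19 ± 0.11 (1.14-fold lower; 95% confidence interval -0.44 to 0.07; limma adjusted p = 0.59). It was 0.035 when centred on the macrophage markers and -0.64 relative to the adipocyte markers. Without Tg 3 it was -0.12. In the 3 arrays without tract transcripts it was -0.15.

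Apoe lies beside Apoc1, Apoc4 and Apoc2 in the gene table, and this cluster is known to share LXR-responsive enhancers in macrophages. Apoc1, directly beside Apoe in gene order, went the other way. It read 5.94, 6.19 and 5.87 in WT and 6.94, 6.28 and 6.52 in Tg, higher by 0.58 ± 0.19 with the groups apart (limma adjusted p = 0.41). Apoc2, chosen after its values were seen, read 4.74, 4.53 and 4.62 in WT and 4.78, 4.32 and 4.23 in Tg, a difference of -0.18 ± 0.17 with overlapping groups.

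Nceh1 encodes a neutral hydrolase that frees stored cholesterol ester. Its bright row read 9.21, 9.17 and 9.13 in WT and 8.58, 9.0003 and 8.997 in Tg. All Tg arrays lay below WT, and Tg 1 lay furthest. The difference was -0.31 ± 0.14 (1.24-fold lower; 95% confidence interval -0.65 to 0.03; limma adjusted p = 0.51), and it was -0.17 without Tg 1 and -0.42 in the arrays without tract transcripts. A second row of the gene read 3.93, 2.88 and 3.43 in WT and 3.34, 4.88 and 3.27 in Tg, a difference of 0.42 ± 0.48 set by Tg 2, and it was -0.11 without that array. The rows thus disagree in direction, and with both averaged the gene differed by 0.053 ± 0.28.

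Lipa encodes the lysosomal acid lipase. It read 11.48, 11.51 and 11.39 in WT and 11.25, 11.40 and 11.45 in Tg. The groups overlapped, with Tg 1 the lowest array. The difference was -0.09 ± 0.10 (95% confidence interval -0.34 to 0.15; limma adjusted p = 0.78), and without Tg 1 it was -0.04. In the arrays without tract transcripts it was -0.14.

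Npc1 encodes the membrane protein that exports cholesterol from the lysosome. Its bright row read 8.65, 8.71 and 8.54 in WT and 8.23, 8.60 and 8.52 in Tg. Tg 1 was again the lowest array, and Tg 2 lay above WT 3. The difference was -0.18 ± 0.13 (95% confidence interval -0.49 to 0.13; limma adjusted p = 0.66), and it was -0.07 without Tg 1 and -0.27 in the arrays without tract transcripts. The dim second row differed by 0.12 ± 0.14, in the other direction, with values of 2.58 to 2.79 in WT and 2.57 to 2.998 in Tg.

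Npc2 encodes the soluble carrier that hands cholesterol to NPC1. It read 10.22, 9.89 and 10.06 in WT and 10.15, 10.25 and 10.20 in Tg. The groups overlapped through WT 1, and WT 2 was the lowest array. The difference was 0.14 ± 0.12 (95% confidence interval -0.13 to 0.42; limma adjusted p = 0.70), and it was -0.043 in the arrays without tract transcripts. Centred on the macrophage markers the difference was 0.37 ± 0.14 (limma adjusted p = 0.21), and then all Tg arrays lay above WT. That centring moves every row up, and 82.0% of all rows were then higher in Tg.

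**Figure D2:**
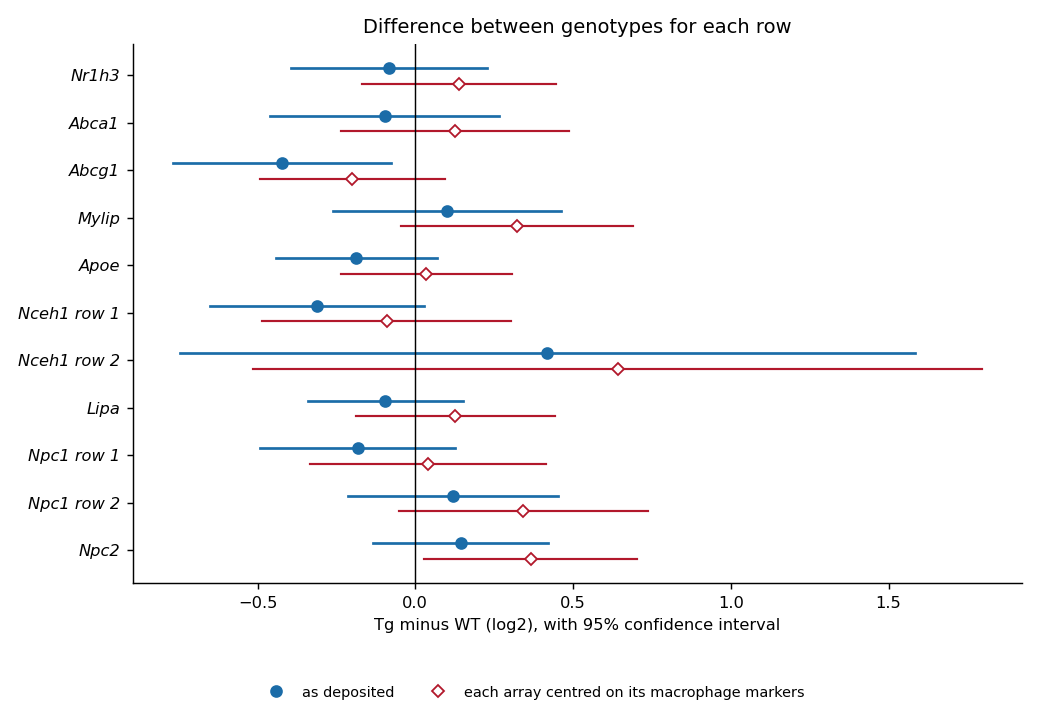
Difference between Tg and WT in log2 units (horizontal axis) for each member row, with its 95% confidence interval from limma, on the deposited values (blue circles) and after each array was centred on the mean of its 15 macrophage marker genes (red diamonds). On the deposited values only the interval of Abcg1, -0.77 to -0.08, leaves out 0; centring moves every row to the right by 0.22, so that 2 of the 11 rows remain below 0.

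The Tg arrays differed more among themselves than the WT arrays in several members, and in 2 patterns, described after the values were seen and not tested. In Nr1h3, Abca1, Abcg1 and Mylip, Tg 1 was the highest and Tg 2 the lowest of the Tg arrays, an order that 21.4% of all rows had. In the bright rows of Nceh1, Lipa and Npc1 and in Npc2, Tg 1 was the lowest Tg array, as in 32.3% of all rows. So among Tg, Tg 1 had the lowest signals of these 4 rows and the highest of the sterol sensor and 3 of its targets. Apoe, another target, was also highest in Tg 1 among Tg (9.15) but lowest in Tg 3 (8.89). Of 10 other LXR targets measured, 4 had the first order. Lipe, a lipase that also splits cholesterol ester, was highest in Tg 1 among Tg, at 7.83.

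Some lists of related genes and of other cells' markers had these orders too, and their part in the results was not tested. The order with Tg 1 highest and Tg 2 lowest was found in 7 of 8 endothelial and 9 of 12 white adipocyte markers. It was found in 5 of 15 macrophage, 4 of 9 mast cell, 3 of 6 mesothelial and 2 of 7 T and NK cell markers. Of progenitor markers 1 of 7 had it, and of epididymis markers 0 of 11. Among related genes, 5 of 6 enzymes that make or remove oxysterols had it, but 1 of 11 other sterol carriers. Of 7 markers of lipid-associated macrophages all 7 had Tg 1 lowest, as had 5 of 15 macrophage markers. Tg 1 was also the lowest Tg array in 7 of 10 SREBP2 targets, described below, and 5 of 11 other sterol carriers. The mean of the adipocyte list, relative to its mean over the arrays, was -0.11, -0.17 and -0.40 in WT and 0.41, -0.00 and 0.27 in Tg. That of the lipid-associated macrophage list was 0.07, 0.12 and 0.11 in WT and -0.31, -0.00 and 0.02 in Tg. That of the macrophage list was 0.03, 0.10 and 0.21 in WT and -0.08, -0.14 and -0.12 in Tg. Abcg1 had the order of the macrophage list within each genotype, a match seen after the values and not tested. In both, WT 3 was the highest and WT 1 the lowest of the WT arrays, and Tg 1 the highest and Tg 2 the lowest of the Tg arrays. The T and NK cell list (-0.78, 0.61 and 1.29) and Spink8 had the same order in WT. The share of all rows with this order was not counted.

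**Figure D3:**
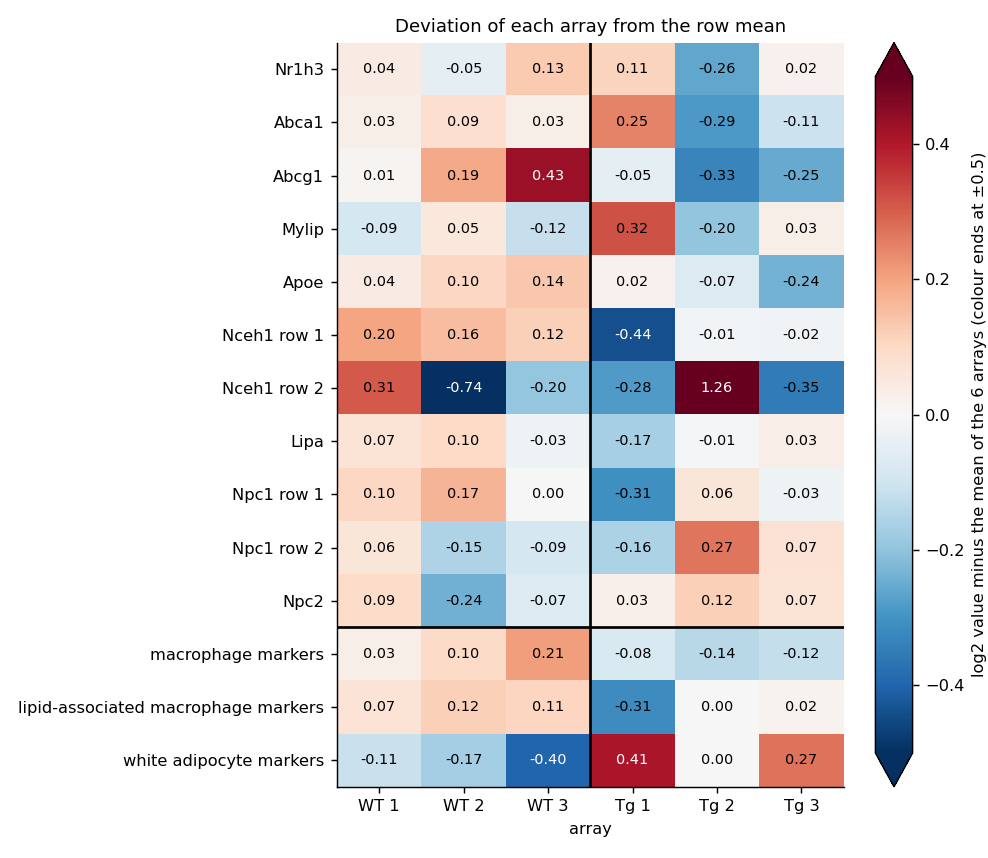
Deviation of each array from the mean of the 6 arrays, in log2 units, for the member rows (upper block) and for the means of 3 marker lists (lower block); red is above and blue below the row mean, and the colour ends at ±0.5. Tg 1 reads 0.25 and 0.32 in Abca1 and Mylip and -0.44 and -0.31 in Nceh1 row 1 and Npc1 row 1.

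Macrophage markers were lower in Tg in 13 of 15 genes, with a median of -0.28. Of them 11 had the groups apart, against 9.35% of all rows and 13.0% of the rows brighter than the median. In WT 1, Tg 1 and Tg 3, 12 of 15 were lower and the median was -0.15. The F4/80 gene Adgre1 differed by -0.45 ± 0.11, and Cd163, a marker of resident macrophages, by 0.64 ± 0.14 in the other direction. All 7 lipid-associated macrophage markers were lower, by a median of -0.20, among them the lipid receptor gene Trem2 (-0.25 ± 0.10) and the integrin gene Itgax (-0.30 ± 0.14). With each array centred on its median, 6 of these 7 were lower, and centred on its macrophage markers, 3 of 7. The 9 measured cholesterol genes, by their bright rows, had a median of -0.10. No gene of these lists passed the threshold.

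The other marker lists were as follows, again with no gene past the threshold in limma. All 12 adipocyte markers were higher, by a median of 0.46, with Thrsp at 0.80 ± 0.15 and Retn at 0.63 ± 0.16. All 8 endothelial markers were higher, by a median of 0.39, with Erg at 0.55 ± 0.19 and Cldn5 at 0.68 ± 0.28, but in the arrays without tract transcripts 7 of 8 were higher and the median was 0.16. All 9 mast cell markers were lower, by a median of -1.51, with Cma1 at -1.58 ± 0.23 and Mcpt4 at -1.58 ± 0.31; in the arrays without tract transcripts all 9 were lower and the median was -0.84. T and NK cell markers were lower in 6 of 7, with Cd3g at -1.16 ± 0.62 and Cd3e at -0.93 ± 0.55, and none had the groups apart. Their median of -0.88 turned to 0.38 in the arrays without tract transcripts, where 7 of 7 were higher. Progenitor markers (4 of 7 higher, Dpp4 at 0.16 ± 0.16, Dcn at -0.11 ± 0.09) and mesothelial markers (4 of 6 higher, Upk3b at 0.27 ± 0.21, Krt19 at -0.49 ± 0.20) were mixed. In the arrays without tract transcripts 2 of 7 progenitor markers were higher, and centred on the macrophage markers 7 of 7 were, against 82.0% of all rows. The epididymis list was higher in 10 of 11, by a median of 1.33, and in 6 of 11, by 0.18, in the arrays without tract transcripts.

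Other known LXR targets did not share 1 direction on the deposited values. Of 10 measured, 6 were higher and 4 lower, with a median of 0.05, and 1 in each direction had an unadjusted p under 0.05 in limma. With arrays centred on the macrophage markers 9 of 10 were higher, against 82.0% of all rows. Cd5l, a protein that macrophages secrete under LXR, had the largest difference of the list. It read 5.07, 5.30 and 4.78 in WT and 4.07, 2.71 and 2.68 in Tg, lower by -1.90 ± 0.39 with the groups apart (limma adjusted p = 0.33). Srebf1, through which LXR drives fatty acid synthesis, read 6.58, 6.45 and 6.22 in WT and 6.89, 6.51 and 6.77 in Tg, a difference of 0.31 ± 0.15 with overlapping groups.

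Receptors for native and modified lipoproteins were lower in 5 of 8 measured genes, 4 of them with the groups apart, against 9.35% of all rows. Beside Lrp8, Lrp1, which takes up APOE-rich remnants and dying cells, read 9.92, 9.79 and 9.87 in WT and 9.52, 9.46 and 9.50 in Tg, lower by -0.36 ± 0.09 (limma adjusted p = 0.35). The groups were well apart, and the spread within each was small. The split was 4 of 8 lower with each array centred on its median, and the same on its macrophage markers. Scarb1, the receptor of high-density lipoprotein, differed by 0.02 ± 0.11.

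Other efflux and acceptor genes were higher in 6 of 8, and in 4 of 8 in the arrays without tract transcripts. Apoa1, the main apolipoprotein of high-density lipoprotein, differed by 0.50 ± 0.19 at low signals of 2.35 to 3.20, and Cav1, of the caveolae, by 0.25 ± 0.11. Among other ester and droplet genes, 5 of 7 were higher. Lipe, the hormone-sensitive lipase that also splits cholesterol ester, read 7.50, 7.17 and 6.99 in WT and 7.83, 7.53 and 7.76 in Tg, higher by 0.48 ± 0.16 with the groups apart, and the droplet coat gene Plin1 differed by 0.42 ± 0.19. Both are adipocyte genes and are in the adipocyte list. Soat2 was not analysed here.

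Other carriers of sterol were mixed, with 5 of 11 higher (10 of 11 centred on the macrophage markers, against 82.0% of all rows). Their median on the deposited values was -0.00, and 0 had an unadjusted p under 0.05 in limma. Osbpl5 differed by 0.25 ± 0.13 and Tmem97, which regulates NPC1, by 0.15 ± 0.10. Enzymes that make or remove oxysterols, the ligands of LXR, were lower in 5 of 6, by a median of -0.04, and in 2 of 6 with each array centred on its median or on its macrophage markers. Cyp7b1 differed by -0.40 ± 0.18 and the bright row of Ch25h by -0.40 ± 0.22, while its dim row differed by 0.03 ± 0.16. Cyp27a1, a mitochondrial sterol hydroxylase, differed by -0.03 ± 0.14.

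SREBP2 is the factor that switches on cholesterol synthesis and uptake when membrane sterol is low. Its targets were higher in 8 of 10 measured genes, by a median of 0.30. Of them 4 had the groups apart, against 7.36% of all rows. Hmgcs1, an early enzyme of the pathway, read 9.52, 9.45 and 9.21 in WT and 10.09, 9.74 and 10.08 in Tg (0.57 ± 0.14), and Insig1, the sterol-regulated brake on SREBP, differed by 0.43 ± 0.13. In the arrays without tract transcripts the median was 0.07. No gene of these lists passed the threshold in limma.

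**Figure D4:**
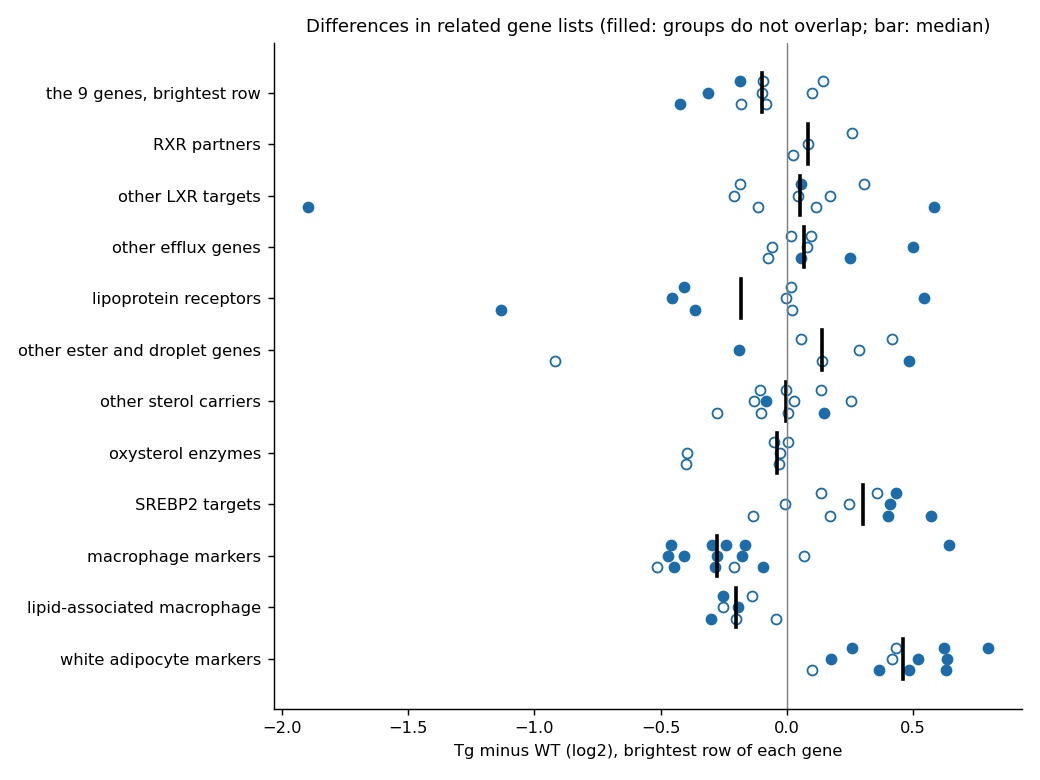
Difference between Tg and WT in log2 units (horizontal axis) for the brightest row of each gene, by list; filled points have no overlap between the groups, and the black bar is the median. The 9 cholesterol genes lie between -0.42 and 0.14 with a median of -0.10. Macrophage markers have a median of -0.28 and adipocyte markers of 0.46, medians that move to -0.05 and 0.68 when arrays are centred on the macrophage markers. The median of the 9 genes is then 0.13, and that of all rows 0.21.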

How the data were processed

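Total RNA of 6 eWAT samples, 400 ng each, was labelled with biotin and hybridised to Affymetrix arrays of whole transcripts, per the labels' protocols. The deposited values are log2 signals, and the submitters' processing notes name RMA and limma. For settings, filters and the genome build: not given in the sources used here. RMA commonly includes quantile normalization, but the array medians here were not equal, so how arrays were scaled to each other is unknown. Precision is limited by 3 arrays per group. Each p-value sets a difference against the spread between these samples, which limma moderates with that of all rows.

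Rows were named through the platform annotation where it gives 1 gene (23521 rows). Tg was compared with WT over all 41345 rows with limma 3.58.1 in R 4.3.3 (lmFit, eBayes, 2-sided, no covariate or filter), with Benjamini-Hochberg adjustment at 0.05 and SE from the fit. For a single value, the smallest p of an exact permutation test with 3 arrays a group is 0.1. The procedure was tested on simulated data. Lists use the brightest row of each gene. Of each list, the 2 genes with the smallest p are named, and all rows of the members, with a few single genes of the pathway. The members and lists were chosen with earlier results of these data known. Alternatives left out arrays, rescaled them, added a block, filtered or merged rows and changed the variance model.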

Additional observations from a re-analysis of the deposited data

How the results depend on the processing

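With an adjusted p threshold of 0.05, limma called 0 of all rows and 0 member rows under every alternative run, with 4263 rows at an unadjusted p under 0.05 on the deposited values. The member rows at an unadjusted p under 0.05, 1 on the deposited values (Abcg1), numbered 2 with a trended, robust variance and 0 to 1 when 1 array was left out. With a replicate block the number was 0. Same-numbered arrays' deviations from the group means correlated at -0.04, 0.01 and -0.04, and those of arrays with different numbers at -0.03 to 0.07. These values do not show whether a number pairs mice, which was not tested.

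The median of the member rows, -0.09, was -0.030 with each array centred on its median, -0.14 with only WT 1, Tg 1 and Tg 3, and -0.11 to -0.07 when 1 array was left out. Centring on the macrophage markers moved the median of all rows by 0.22 and the share of rows higher in Tg from 47.2% to 82.0%; median centring moved that share to 60.2%. The members' median became 0.13 under macrophage centring, where that of all rows was 0.21. Abca1 was then at 0.13, Apoe 0.035, Nr1h3 0.14, Lipa 0.13 and Npc1 0.039 in their bright rows. With only WT 1, Tg 1 and Tg 3, whose single WT array is assumed to vary like Tg, signs turned for Abca1 (0.041), Nr1h3 (0.024), Npc2 (-0.043) and the dim rows of Nceh1 (-0.62) and Npc1 (-0.10). Averaging rows turned Nceh1 to 0.053. Leaving out 1 array gave ranges across 0 for Abca1 (-0.25 to 0.023), Nr1h3 (-0.16 to 0.026), Mylip (-0.034 to 0.22) and the dim row of Nceh1 (-0.11 to 0.70). Abcg1 kept its direction under every alternative run. Where the alternative's construction does not show it, the cause was not tested.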
